A study of Sus scrofa with 18 samples.

Results

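The transcripts described here encode the protein components of the mitochondrial ribosome in porcine gastrocnemius muscle. A probe set of the array was taken where its annotation holds exactly 1 gene symbol that begins with MRPL or MRPS and a digit. This rule found 57 of 25388 probe sets, of which 35 stand for 33 genes of the large subunit (MRPL) and 22 for 20 genes of the small subunit (MRPS). A further probe set, annotated to both TPD52 and MRPS28, was left out. All 53 gene IDs were found in the RefSeq table of the pig assembly Sscrofa11.1 under the same symbol. Another 23 of the 76 protein-coding MRPL and MRPS symbols in that table, among them MRPL12, MRPS12 and MRPS36, were not analysed here.

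Mitochondria carry ribosomes of their own, which translate the few mRNAs of mitochondrial DNA, all of them coding for subunits of the respiratory chain and the ATP synthase. The ribosomal RNAs come from mitochondrial DNA as well, but every protein of the ribosome is encoded in the nucleus, made in the cytosol and imported. The small subunit reads the mRNA, the large subunit forms the peptide bond, and part of the proteins of each descend from the bacterial ribosome while others are found only in mitochondria.

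The study asked how muscle and other metabolic organs of growing pigs respond when a conventional protein source is replaced by insect meal, which was made of Tenebrio molitor larvae (yellow mealworms). Male crossbred pigs that were 5 weeks old received for 4 weeks a diet with 0% (group CON), 5% (group IM5) or 10% (group IM10) insect meal. The insect meal stood for 50 and 100% of the soybean extraction meal of the control diet in groups IM5 and IM10. The diets with insect meal also held added cellulose and more crude fiber, and the amounts of oils and free amino acids were adjusted. The paper states that effects of these diets cannot be put down to constituents of the insect meal alone. Muscle RNA of 6 randomly chosen pigs of each group was hybridised, 1 pig to an array, and the values are log2 expression values after RMA, a procedure that corrects the background, normalises between arrays and summarises the probes of a transcript. Pigs were kept in pens of 3 to 4, which pigs shared a pen is not stated, and all tests therefore treat the pigs as independent.

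Over all 25388 probe sets, 582 passed the thresholds of the study's methods (unadjusted P below 0.05 together with a change of more than 1.2-fold) in group IM10 compared with group CON, 532 in group IM5 compared with group CON and 698 in group IM10 compared with group IM5. The test was limma on all 18 arrays in place of the methods' t-test, and 1 of these probe sets (0.00394% of all), 0 and 0 passed an adjusted p of 0.05. Below, "rose" and "fell" are used of transcripts past the unadjusted P and the fold change. The mean over 9 probe sets for skeletal muscle markers was 11.8 to 12.1 on the log2 scale in all pigs. The array of IM10 replicate 2 stood apart in its macrophage markers, whose mean over 11 probe sets was 7.78 in this pig, against 5.84 to 6.74 in group CON, 5.93 to 6.58 in group IM5 and 5.84 to 6.69 in the other pigs of group IM10. In bulk muscle, fewer cells of a type and less RNA per cell cannot be told apart.

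All but 1 of the 57 probe sets were brighter than the dimmest 30% of the array. The exception was MRPL36. The mean log2 value over all pigs lay between 3.83 and 8.28, and the brightness of different probe sets does not rank the abundance of their transcripts. The SD within groups had a median of 0.165 over the mitochondrial ribosomal protein probe sets, against 0.192 over all probe sets, and ranged from 0.0934 for MRPL17 to 0.337 for MRPS6. The map of all values shows that no row separated the diets and that single pigs were high or low in many rows at once.

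**Figure D1:**
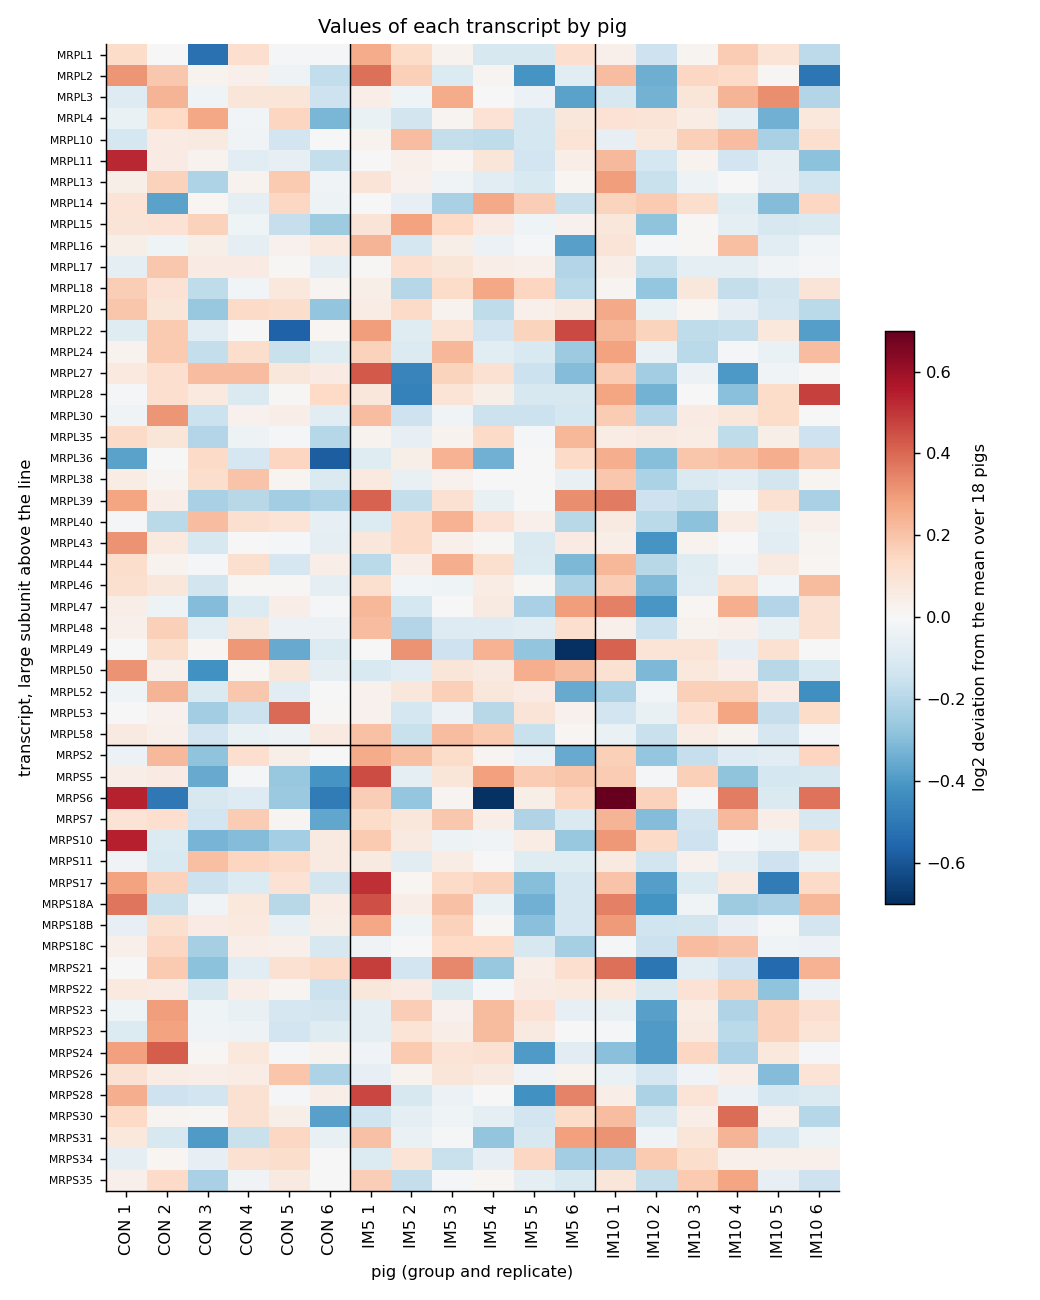
Log2 deviation of each transcript from its mean over all 18 pigs (colour scale, log2 units), with 1 row for each of 54 distinct probe set profiles and 1 column per pig in the order CON, IM5, IM10. Large subunit transcripts lie above the horizontal line, and the columns of IM10 replicate 1 and IM10 replicate 2 are mostly above and mostly below 0.

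In group IM10 compared with group CON, MRPS6 was the single mitochondrial ribosomal protein transcript that rose, and none fell. Over all probe sets, 1.12% rose and 1.17% fell, so 1 of 57 in one direction and 0 of 57 in the other are near the background. By limma, an unadjusted P under 0.05 alone was reached by MRPS6 and MRPS24 (2 of 57, against 4.38% of all probe sets). With the methods' t-test it was reached by 1 of 57, the large subunit transcript MRPL27, which fell short of the fold change. The lowest limma adjusted p among the 57 was 0.991. In no case did the pigs of group IM10 lie wholly above or below those of group CON, which happened for 0.213% of all probe sets. The mean of group IM10 was the lower one for 33 of the 57, against 50.3% of all probe sets.

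MRPS6 is the counterpart of bacterial S6, a protein on the platform of the small subunit. Its log2 value had a lowest, median and highest of 4.70, 5.06 and 5.50 in group IM10, against 4.30, 4.62 and 5.34 in group CON. All 6 pigs of group IM10 exceeded the mean of group CON, but CON replicate 1 exceeded every pig of group IM10 except replicate 1, so the groups overlapped. Its log2 change of 0.40 had a 95% interval of 0.03 to 0.77 and a standard error of 0.18, at a limma adjusted p of 0.991. For group IM5 against group CON the log2 change was 0.06, with a 95% interval of -0.31 to 0.42. The rise in group IM10 did not pass with the methods' t-test, and it no longer passed when CON replicate 2 (log2 change 0.33), CON replicate 5 (0.38), CON replicate 6 (0.33), IM10 replicate 1 (0.31), IM10 replicate 4 (0.38) or IM10 replicate 6 (0.37) was left out.

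**Figure D2:**
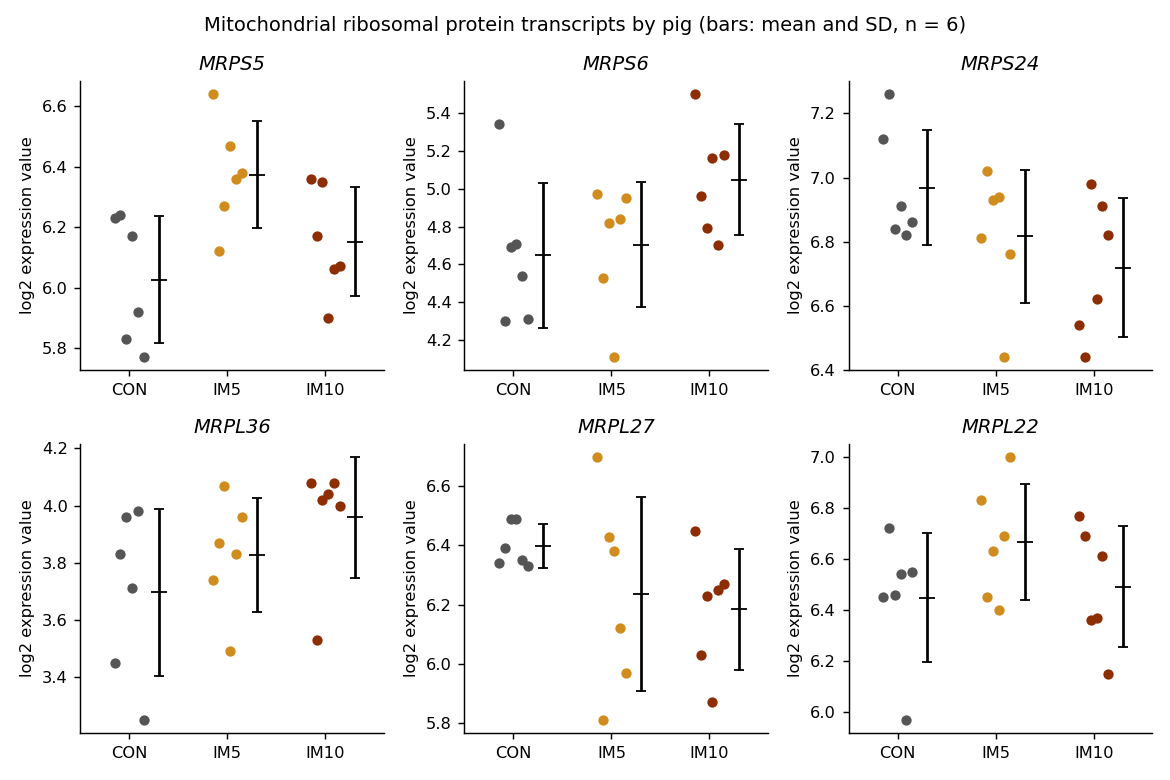
Log2 expression values of 6 mitochondrial ribosomal protein transcripts in each pig (points), by group in the order CON, IM5, IM10, with the mean and SD of 6 pigs beside them. In every panel the points of the 3 groups overlap, MRPS5 is highest on average in group IM5 and MRPS6 in group IM10.

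MRPS24, the counterpart of bacterial S3 at the mRNA entry of the small subunit, was the transcript next to the thresholds on the other side. It had 6.44, 6.72 and 6.98 as lowest, median and highest in group IM10, against 6.82, 6.89 and 7.26 in group CON. This gave a log2 change of -0.25 (limma adjusted p = 0.991, standard error 0.11), just short of 1.2-fold. Without any one of CON replicates 3, 5 and 6 and IM10 replicates 3, 5 and 6 it passed both thresholds, with log2 changes between -0.30 and -0.27. The other small subunit transcripts with large differences did not pass. MRPS17 had a log2 change of -0.13 and MRPS11 of -0.12 (standard errors 0.14 and 0.07), while MRPS31, a protein known only from mitochondria, had 0.16 and MRPS5 0.13 (standard error 0.11 for both).

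No large subunit transcript passed in group IM10 compared with group CON. The nearest by limma was MRPL36, the counterpart of a small zinc-binding protein of the bacterial large subunit, which is among the dimmest 30% of the array. Its values were 3.53, 4.03 and 4.08 as lowest, median and highest in group IM10, against 3.25, 3.77 and 3.98 in group CON. Of the pigs of group IM10, 5 lay between 4.00 and 4.08, all above every pig of group CON, and IM10 replicate 2 lay at 3.53. With a log2 change of 0.26 (limma adjusted p = 0.991, standard error 0.13) it missed the thresholds. It passed both thresholds without IM10 replicate 2 (0.35), without CON replicate 3 (0.31) or without CON replicate 5 (0.32).

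MRPL27 stands near the peptidyl transferase centre, as its bacterial counterpart does. It had 5.87, 6.24 and 6.45 as lowest, median and highest in group IM10, against 6.33, 6.37 and 6.49 in group CON, with a log2 change of -0.22 (limma adjusted p = 0.991, standard error 0.13). The pigs of group IM10 spread wider (SD 0.203 over 6 pigs) than those of group CON (SD 0.0739 over 6 pigs), and without IM10 replicate 1 the log2 change was -0.27 and passed. MRPL2 and MRPL11 followed at -0.12 and -0.11 (standard errors 0.14 and 0.10), and MRPL49 and MRPL39 at 0.11 and 0.08 (standard errors 0.15 and 0.12). These values moved with single pigs, and with 1 pig left out MRPL2 ran from -0.17 to -0.026, MRPL11 from -0.17 to -0.017, MRPL49 from 0.037 to 0.17 and MRPL39 from 0.0063 to 0.16. CON replicate 1 had the highest MRPL11 value of its group, 7.79, and the other 5 pigs reached at most 7.32.

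**Figure D3:**
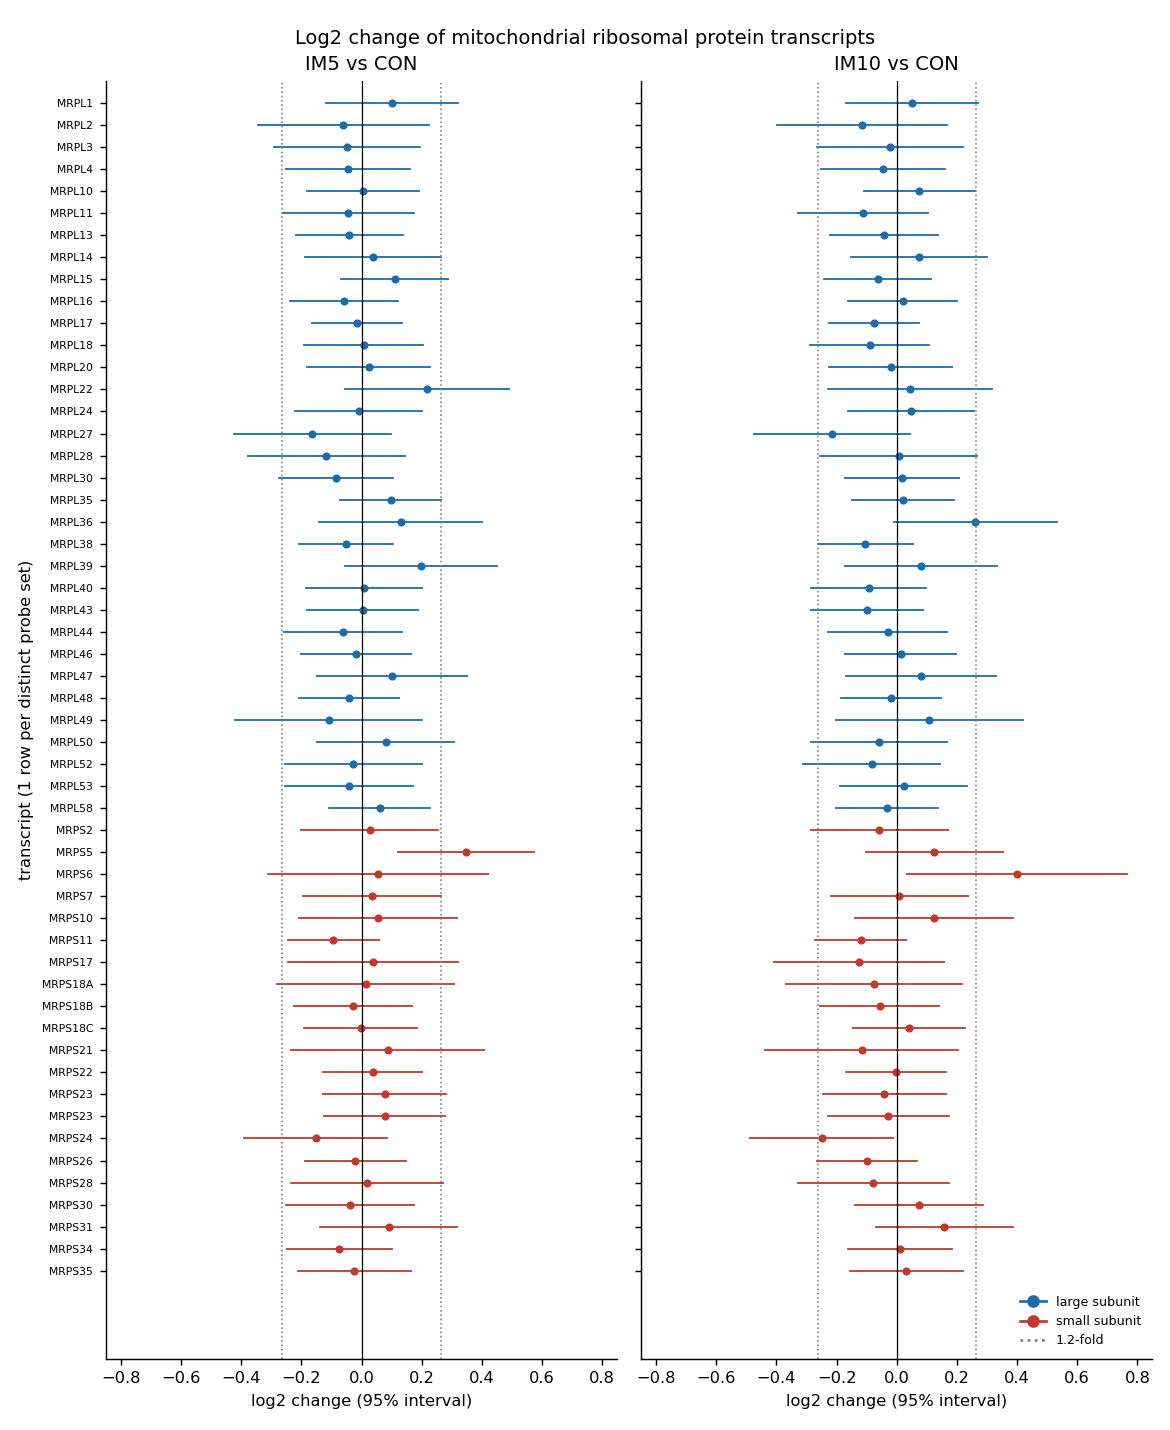
Log2 change of each of 54 distinct mitochondrial ribosomal protein profiles with its 95% interval from limma, in group IM5 (left) and group IM10 (right) compared with group CON, 6 pigs per group. Large subunit transcripts are blue, small subunit transcripts red, dotted lines mark a 1.2-fold difference, and most intervals include 0.

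In group IM5 compared with group CON, MRPS5 rose and no mitochondrial ribosomal protein transcript fell. The background was 1.09% for rises and 1.01% for falls, and 1 of 57 and 0 of 57 are again close to it. MRPS5 alone reached an unadjusted P under 0.05 (3.7% of all probe sets), with limma and with the methods' t-test. The lowest limma adjusted p among the 57 was 0.998. The pigs of the groups overlapped for each of the 57, while 0.15% of all probe sets had no overlap, and the mean of group IM5 was the lower one for 27 of the 57, against 49.8% of all probe sets.

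MRPS5 corresponds to bacterial S5, which lies beside the decoding region of the small subunit. Its log2 value had a lowest, median and highest of 6.12, 6.37 and 6.64 in group IM5, against 5.77, 6.05 and 6.24 in group CON. All 6 pigs of group IM5 exceeded the mean of group CON, and 5 of them exceeded every pig of group CON. Its log2 change of 0.35 had a 95% interval of 0.12 to 0.57 and a standard error of 0.11, at a limma adjusted p of 0.998. This rise passed both thresholds under every alternative and with any single pig left out. For group IM10 against group CON the log2 change of MRPS5 was 0.13 (standard error 0.11), so the value of the higher dose lay between the others.

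MRPL22, whose bacterial counterpart lines the exit tunnel of the nascent peptide, had 6.40, 6.66 and 7.00 as lowest, median and highest in group IM5, against 5.97, 6.50 and 6.72 in group CON. The log2 change of 0.22 (limma adjusted p = 0.998, standard error 0.13) did not pass, and CON replicate 5 lay alone at 5.97. MRPL39, a mitochondrion-specific protein related to threonyl-tRNA synthetase, stood at a log2 change of 0.20, with a standard error of 0.12, and passed without CON replicate 1 (0.27). MRPL36 had 0.13, MRPS31 0.09 and MRPS21 0.09 (standard errors 0.13, 0.11 and 0.15), and with 1 pig left out they ran from 0.041 to 0.20, from 0.028 to 0.15 and from 0.0090 to 0.16. On the other side MRPL27 had -0.16 and MRPS24 -0.15 (standard errors 0.13 and 0.11). MRPL28, MRPL49, MRPS11 and the mitochondrion-specific MRPS34 followed at -0.12, -0.11, -0.09 and -0.07 (standard errors 0.13, 0.15, 0.07 and 0.08).

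In group IM10 compared with group IM5, none of the 57 rose and none fell (background 1.43% and 1.32%), and none reached an unadjusted P under 0.05 (background 5.22%). The methods' t-test put 2 of 57 under an unadjusted P of 0.05, the pair of MRPL15 probe sets with identical values and so 1 measurement (log2 change -0.17), which did not reach the fold change. The lowest limma adjusted p was 0.931, and no transcript was without overlap (background 0.177%). For MRPS6 the log2 change was 0.35, with a standard error of 0.18, and for MRPS5 -0.22, with a standard error of 0.11. Across all probe sets the split of this comparison was 363 rises and 335 falls, and 255 and 462 after centring every array on its median, under which again no mitochondrial ribosomal protein transcript passed. MRPS6 passed without CON replicate 1 (0.35), IM5 replicate 1 (0.40), IM5 replicate 6 (0.39), IM10 replicate 3 (0.40) or IM10 replicate 5 (0.41). MRPS5 passed as a fall without IM5 replicate 2 (-0.27) or IM10 replicate 1 (-0.26). Both transcripts therefore stand at the edge of the thresholds here. The mean of group IM10 was the lower one for 36 of the 57, against 50.5% of all probe sets, and for 33 of the 57 when IM10 replicate 2 was left out.

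For many of these transcripts the data bound the difference. For group IM10 against group CON, the 95% interval lay inside a 1.2-fold difference in either direction for 26 of 57 probe sets (28.8% of all probe sets), 17 of the large and 9 of the small subunit. For group IM5 against group CON it did so for 30 of 57 (30.6% of all), and in group IM10 compared with group IM5 for 22 of 57 (27.6% of all). These were 45.6, 52.6 and 38.6% of the mitochondrial ribosomal protein probe sets, whose SD was also the smaller one. Among those bounded in both comparisons with group CON was MRPL17, a large subunit protein with a bacterial counterpart, whose log2 changes were -0.02 for IM5 and -0.08 for IM10 (standard error 0.07 for both).

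Between group IM10 and group CON, the median log2 change was -0.02 over the 35 large subunit probe sets and -0.04 over the 22 of the small subunit, against -0.002 over all probe sets. For group IM5 against group CON these medians were -0.01 and 0.02, against 0 over all probe sets. For group IM10 against group IM5 they were -0.05 and -0.03, against -0.003 over all. The median of the large subunit minus that of the small subunit was thus 0.01, -0.03 and -0.02 in these comparisons. With 1 pig left out, the medians against group CON took either sign. Those of the large subunit ran from -0.040 to 0.0037 for IM10 and from -0.032 to 0.027 for IM5, and those of the small subunit from -0.054 to 0.0097 and from -0.011 to 0.055. Taken pig by pig as the median deviation from the 18-pig mean, the large minus the small subunit averaged -0.01 in group IM10 (SD 0.03 over 6 pigs), 0.001 in group IM5 (SD 0.07 over 6 pigs) and -0.004 in group CON (SD 0.04 over 6 pigs), so the spread between pigs was larger than the differences between groups. Both transcripts past the thresholds, MRPS5 and MRPS6, belong to the small subunit. That is 1 of 22 small and 0 of 35 large subunit probe sets in each comparison with group CON. Over all probe sets, 1.12% rose in group IM10 and 1.09% in group IM5. Whether the subunits differ in such counts was not tested.

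Symbols do not always give the place of a protein. MRPS30 and MRPS18A carry small subunit names but sit in the large subunit by structure. MRPS30 had a log2 change of 0.07 for IM10 and -0.04 for IM5, each against group CON (standard error 0.10 for both), with CON replicate 6 at 5.63 and the other pigs of group CON at 6.02 or more. MRPS18A had -0.08 and 0.01 (standard error 0.14 for both). With both counted as large subunit, the median log2 change of the small subunit was -0.04 for IM10 and 0.03 for IM5, and that of the large subunit remained at -0.02 and -0.01.

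The proteins were also grouped by descent. The 36 probe sets for proteins with a bacterial counterpart had a median log2 change of -0.03 for IM10 and 0.01 for IM5 against group CON. The 20 for mitochondrion-specific proteins had -0.02 and -0.02. MRPL58, a peptidyl-tRNA hydrolase that became part of the large subunit, was counted with neither and had -0.03 and 0.06 (standard error 0.08 for both). MRPS18 exists in 3 forms encoded by separate genes, of which MRPS18B and MRPS18C belong to the small subunit. MRPS18B had -0.06 and -0.03 (standard error 0.09 for both) and MRPS18C had 0.04 and -0.003 (standard error 0.09 for both), and none of the forms passed.

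For 4 genes the array holds more than 1 probe set. Those of MRPL15, MRPL40 and MRPS18B are pairs with identical values in every pig, so they carry 1 measurement each. MRPL15 had a log2 change of -0.06 for IM10 and 0.11 for IM5 against group CON, and MRPL40 had -0.09 and 0.01 (standard error 0.09 for all). The pair for MRPS23, a mitochondrion-specific protein of the small subunit, differed in its values and correlated at r = 0.974 across the 18 pigs after group means were removed. Its log2 changes were -0.04 and -0.03 in group IM10 and 0.08 and 0.08 in group IM5 (standard error 0.10 for all).

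Other gene sets of the same cells gave the scale of these shifts. The set called the cytosolic ribosome here holds 61 probe sets with 1 gene symbol that begins with RPL or RPS and a digit. This rule also admits symbols of other proteins, such as the ribosomal S6 kinases (RPS6K), and none were taken out. The mean log2 value of its probe sets ran from 1.85 to 11.9. Its median log2 change was 0.02 for IM10 and 0.02 for IM5 against group CON. It held 1 rise and 1 fall in group IM10 and 1 fall in group IM5. The 58 probe sets for nuclear-encoded subunits of oxidative phosphorylation, the complexes that mitochondrial translation completes, had -0.01 and 0.01. By limma none of them rose or fell, and 1 in group IM10 and 0 in group IM5 reached an unadjusted P under 0.05 against group CON. The 57 probe sets of the mitochondrial ribosome together had medians of -0.03 for IM10 and 0.01 for IM5. No difference between these sets was tested.

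Single pigs stood out in the whole set. For each pig the median deviation of the large and the small subunit from the 18-pig mean was taken. It ran from -0.16 to 0.10 for the large subunit and from -0.15 to 0.17 for the small subunit, and both lay on the same side of 0 in 16 of 18 pigs. The difference between them reached 0.10 in IM5 replicate 1. The lowest of all in both subunits was IM10 replicate 2 (-0.16 and -0.15), where 48 of the 57 probe sets were below their group mean and 11 had their lowest value of all pigs. The highest of all was IM10 replicate 1 (0.10 and 0.17), where 49 of 57 were above their group mean. IM10 replicate 2 was also lowest in oxidative phosphorylation (-0.39) and highest in macrophage markers (1.03), whose part in the low mitochondrial ribosomal protein values was not tested. Without this pig, the mean of group IM10 was lower than that of group CON for 28 of 57 probe sets in place of 33.

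**Figure D4:**
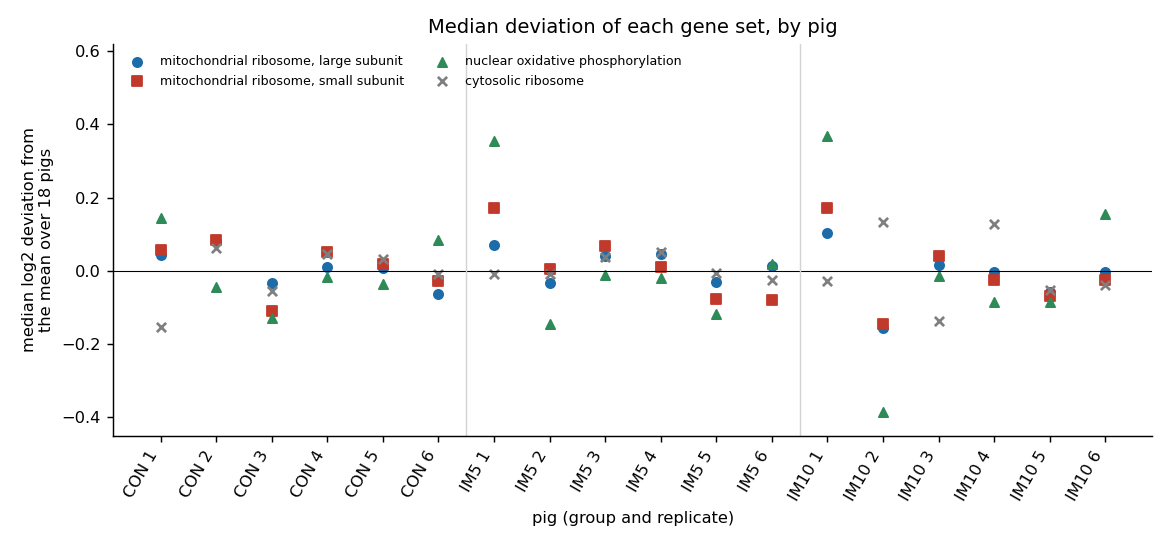
Median log2 deviation from the mean over 18 pigs (vertical axis) of the probe sets of 4 gene sets in each pig, by group in the order CON, IM5, IM10. The large and small subunit of the mitochondrial ribosome differ by at most 0.10 in any pig, IM10 replicate 1 is high and IM10 replicate 2 low, and oxidative phosphorylation spreads wider, between -0.39 and 0.37.

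Oxidative phosphorylation genes did not run in parallel with the mitochondrial ribosome in every pig. Their medians lay on the same side of 0 in 9 of 18 pigs, and those of the cytosolic and the mitochondrial ribosome in 12 of 18. Such counts ignore the distance from 0. The pigs furthest from 0 in oxidative phosphorylation were IM10 replicate 2, IM10 replicate 1 and IM5 replicate 1. There the median of the mitochondrial ribosome lay on the same side (-0.16, 0.15 and 0.08). Between single transcripts, the median r of the mitochondrial ribosome was 0.29 with oxidative phosphorylation and -0.04 with the cytosolic ribosome. In each group, replicate 1 was the highest pig for oxidative phosphorylation (0.14 in CON, 0.36 in IM5 and 0.37 in IM10). In IM5 replicate 1, the small subunit reached 0.17 and 12 of the 57 probe sets had their highest value of all pigs.

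Pairs of transcripts were followed across the 18 pigs after the group means had been removed, with 1 profile used where probe sets held identical values. The median r was 0.17 over 528 pairs within the large subunit, 0.22 over 210 pairs within the small subunit and 0.22 over 693 pairs of one with the other. The transcripts of a pig share its array, and pairs share transcripts. The same median was 0.67 within oxidative phosphorylation, 0.20 within the cytosolic ribosome and 0.003 as a mean over all pairs of the array. Between the mitochondrial ribosome and oxidative phosphorylation it was 0.29, and between the mitochondrial and the cytosolic ribosome -0.04. Transcripts of the mitochondrial ribosome thus varied together weakly, no more within a subunit than across subunits. Without IM10 replicate 2, the medians were 0.14, 0.19 and 0.18, and without replicate 1 of each group 0.12, 0.15 and 0.17, both left out after the data had been seen. In the same order of omissions, the median within oxidative phosphorylation was 0.59 and 0.50, that between the mitochondrial ribosome and oxidative phosphorylation 0.22 and 0.15, and that between the mitochondrial and the cytosolic ribosome 0.01 and 0.01, so the last had no settled sign.

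**Figure D5:**
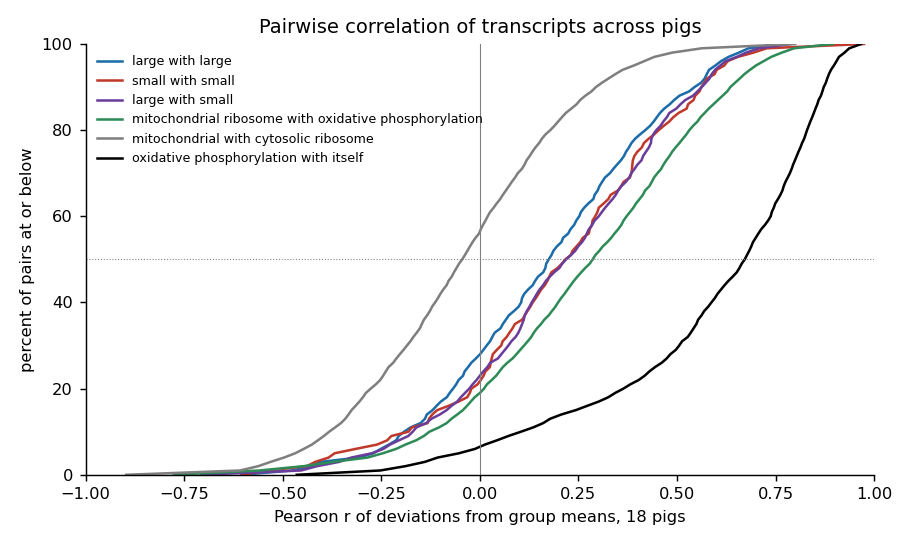
Cumulative distribution (percent of pairs, vertical axis) of Pearson r between transcripts across 18 pigs after removal of group means (horizontal axis). The curves of large with large, small with small and large with small nearly coincide with medians of 0.17, 0.22 and 0.22, and that of oxidative phosphorylation with itself lies far to the right at 0.67.

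Among different genes, the pair most alike was MRPL24 with MRPS2 (r = 0.79), followed by MRPL46 with MRPS2 (r = 0.77) and MRPL13 with MRPL20 (r = 0.76). Among the 54 distinct profiles, MRPS34 had the lowest mean r with the other transcripts of the mitochondrial ribosome, at -0.22. Those of MRPL14 (-0.06), MRPL10 (-0.06) and MRPL22 (-0.02) were also below 0. The lowest value of all pairs was that of MRPS34 with MRPL39, at -0.71. IM10 replicate 1, the pig with the highest median of the mitochondrial ribosome, had an MRPS34 value of 6.48, against 6.74 to 6.89 in the other pigs of its group, while IM10 replicate 2 had the highest of them. How far the mean r of MRPS34 rests on these pigs was not tested.

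Genes that serve the mitochondrial ribosome were followed in lists of subunits under other names, assembly factors, translation factors, mitochondrial tRNA synthetases, factors of mitochondrial transcription and RNA, and regulators. Of 61 probe sets for 59 of these genes, none rose and 2 fell in group IM10 compared with group CON, none rose and 2 fell in group IM5 compared with group CON, and none rose and 1 fell in group IM10 compared with group IM5. The background of falls was 1.17, 1.01 and 1.32% of all probe sets. No member of the list of assembly factors (18 probe sets) or translation factors (9) was among them, nor were the ribosomal proteins DAP3, PTCD3 and GADD45GIP1, whose symbols do not begin with MRP (log2 changes of -0.03, 0.06 and -0.03 in group IM10 compared with group CON).

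NARS2, the mitochondrial asparaginyl-tRNA synthetase, fell in both comparisons with group CON, which share its pigs. Its lowest, median and highest log2 values were 6.82, 7.02 and 7.19 in group CON, 6.49, 6.71 and 6.80 in group IM5 and 6.29, 6.76 and 7.10 in group IM10. The pigs of group IM5 all lay below those of group CON, as happened in either direction for 0.15% of all probe sets, and those of group IM10 overlapped with them. Against group CON its log2 change was -0.35 for IM5 (limma adjusted p = 0.998) and -0.26 for IM10 (limma adjusted p = 0.991), with a standard error of 0.12 for both. The fall in group IM10 lay at the fold threshold itself, 0.263 on the log2 scale. It was lost with the methods' t-test, with a fit of these groups alone, after another quantile normalization and with array weights, and without CON replicate 2 (-0.25), CON replicate 3 (-0.23), CON replicate 4 (-0.25), IM10 replicate 1 (-0.25), IM10 replicate 2 (-0.17) or IM10 replicate 6 (-0.22).

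MYC, a transcription factor that drives ribosome formation and growth, also fell in both comparisons, which share group CON. It had 6.29, 6.58 and 6.74 as lowest, median and highest in group CON, 5.75, 6.04 and 6.21 in group IM5 and 5.84, 6.13 and 6.76 in group IM10. Again the pigs of group IM5 all lay below those of group CON, while group IM10 overlapped with it. Against group CON its log2 change was -0.52 for IM5 (limma adjusted p = 0.998) and -0.29 for IM10 (limma adjusted p = 0.991), with a standard error of 0.13 for both. The fall in group IM10 was lost with the methods' t-test and with the replicate number as a block (log2 change -0.29), and when any one of CON replicates 1, 2, 4 and 6 or IM10 replicates 1, 3, 5 and 6 was left out, with log2 changes between -0.29 and -0.21. In group IM5, the falls of NARS2 and MYC passed with any single pig left out. The nuclear receptor ESRRG, which drives mitochondrial genes in muscle, fell in group IM10 compared with group IM5 by 0.42 (standard error 0.19). It did not pass with the methods' t-test, with a fit of these groups alone, with array weights or when any one of IM5 replicates 1, 5 and 6 or IM10 replicates 2, 4 and 5 was left out, with log2 changes between -0.40 and -0.30 in these omissions. TFAM, which packages and transcribes mitochondrial DNA, had a log2 change of 0.18 in group IM10 compared with group CON and did not pass.

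In the RefSeq table, 15 of the 53 genes overlap another protein-coding gene and 4 have an oxidative phosphorylation gene as a direct neighbour. These are MRPL36 beside NDUFS6, MRPL47 beside NDUFB5, MRPS6 beside ATP5O and MRPL58 beside ATP5H. MRPS11 and MRPL46 are neighbours of each other. MRPS6 overlaps SLC5A3, a myo-inositol transporter gene, and which transcripts the MRPS6 probe set reads beside MRPS6 was not tested. ATP5O, a subunit of the ATP synthase beside MRPS6, had a log2 change of 0.06 in group IM10 compared with group CON (standard error 0.15), against 0.40 for MRPS6.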

How the data were processed

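The deposited values are log2 expression values that the authors made with RMA in Affymetrix Expression Console, from 1 array for each of 18 pigs. They were used as deposited. The number of arrays limits the precision. Symbols came from the platform annotation (13257 probe sets with 1 entry, 427 with several, 11704 with none). Group means were fitted once to all arrays with limma (version 3.58.1, under R 4.3.3), and p-values were adjusted over all probe sets (Benjamini-Hochberg). Counts and plots were made in Python (3.11.15; matplotlib 3.10.9, scipy 1.17.1, numpy 2.4.6 and pandas 2.3.3). The procedure was tested on simulated data.

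The members, the lists and the alternatives were chosen with earlier results of these data known. Named were transcripts past the thresholds, the 3 largest differences either way of each subunit in each comparison with group CON, genes with more than 1 probe set, genes whose name and place differ, MRPL36, and listed genes past the thresholds. Genes named for a correlation or a position, DAP3, PTCD3, GADD45GIP1, TFAM, MRPL17, MRPL58 and MRPS18C were added after their values were seen. The alternatives changed the test (the methods' t-test, a trended and robust prior), the samples (pairs of groups, each pig left out), the design (replicate number as a block, array weights), the scaling (quantiles, array medians) or the probe sets (without the dimmest 30%, 1 for each symbol, subunits by structure). Of further marker lists (adipocyte, endothelium, fibroblast, Schwann cell, erythroid), 1 endothelial probe set passed, in group IM10 compared with group IM5.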

Additional observations from a re-analysis of the deposited data

Results flagged for a closer look

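Of 75 groups of 6 pigs tested for the named transcripts, 11 held a pig that stood far from the others, where a rate of 1 in 20 would give 3.75. In group CON these were MRPL11 in replicate 1 (7.79, nearest pig 7.32), MRPL22 in replicate 5 (5.97, nearest 6.45), MRPS30 in replicate 6 (5.63, nearest 6.02) and both MRPS23 probe sets in replicate 2 (6.42 and 6.49, nearest 6.10 and 6.18). In group IM5 these were MRPL11 in replicate 5 (7.13, nearest 7.27) and MRPL28 in replicate 2 (4.95, nearest 5.31). In group IM10 these were MRPL36 in replicate 2 (3.53, nearest 4.00) and, in replicate 1, MRPL49 (8.14, nearest 7.83), MRPS18B (6.60, nearest 6.29) and MRPS34 (6.48, nearest 6.74). The transcripts of a pig share an array, so these groups are not independent of each other. Many of the transcripts were named for large differences in the same data, to which a single far pig can add, and MRPS23 enters with both probe sets. The rate of 1 in 20 is therefore no fair measure of an excess here.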

How the results depend on the processing

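The counts of mitochondrial ribosomal protein transcripts past the thresholds were 0 or 1 in each comparison. Leaving out 1 pig changed which transcripts passed for 10 of the 12 pigs of group IM10 and group CON, for 1 of the 12 of group IM5 and group CON, and for 6 of the 12 of group IM10 and group IM5 (and for 1 of the 6 pigs outside that comparison). In group IM10 compared with group CON the count of rises was 0 with the methods' t-test. In group IM10 compared with group IM5 it was 1 with a fit of only these groups and 1 with the replicate number as a block. With a single pig left out, the count of rises ran from 0 to 2 in group IM10 and from 1 to 2 in group IM5 compared with group CON, and from 0 to 1 in group IM10 compared with group IM5, and the count of falls from 0 to 1, 0 to 0 and 0 to 1 in the same order. With a single pig left out, the subunit medians against group CON took either sign, those of group IM10 compared with group IM5 stayed negative (-0.078 to -0.0067 for the large and -0.086 to -0.0075 for the small subunit), and the sign of small changes turned for MRPL40 (-0.035 to 0.055), MRPL49 (-0.19 to 0.027), MRPS18A (-0.071 to 0.087) and MRPS18B (-0.082 to 0.030) in group IM5, and for MRPS23 (-0.084 to 0.024 and -0.070 to 0.042) and MRPS30 (-0.00067 to 0.13) in group IM10, all compared with group CON. Replicate numbers were not taken to pair the pigs, since deviations of same-numbered pigs correlated between -0.12 and 0.30, over 0.1 in 5 of 18 pairs. All 3 pairs of replicate 1 were among these (0.30, 0.22 and 0.30), and 6 of 18 pigs correlated best with a pig of their own number. How many pigs would do so with unrelated numbers was not tested, so these values do not show that the numbers are without meaning. The block also gave 1 transcript under an unadjusted P of 0.05 in group IM10 compared with group CON, against 2 without it, and 1 in group IM10 compared with group IM5, against 0. Over all probe sets the methods' t-test gave 185 rises and 239 falls in group IM10 compared with group CON, 169 and 182 in group IM5 compared with group CON, and 242 and 229 in group IM10 compared with group IM5. The 95% intervals of these transcripts had a median half-width of 0.21 on the log2 scale, which limits what 6 arrays per group can show.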
